A study of Mus musculus with 2 samples.

Results

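The cells described here are 200 of 2209, chosen by the highest sum of the table's values of 4 genes, Amica1, Fgfbp1, Sfrp5 and Ifi27l2b, over both libraries. They come from intestinal organoids of C57Bl mice aged 3 to 4 months with mutant Apc. Normal Apc protein marks beta-catenin for destruction and so keeps the Wnt pathway off. Single cells were captured in droplets from 1 library of organoids treated with DBZ (1241 cells) and 1 library treated with DMSO (968 cells). DBZ inhibits gamma-secretase, which cuts Notch receptors so that they can signal, and DMSO was the vehicle. The protocol text shared by both libraries lists 300 nM 4-hydroxytamoxifen and 10 uM DBZ, and the titles decide which library is which. The sources used here do not give the Apc allele, what activates it or the number of animals behind each library. With 1 library per treatment there was no test between treatments, and cells of 1 library are not replicates, so every value below is a description of these 2 libraries. Intervals cover counting error only.

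Apc-mutant crypt cells hold beta-catenin active, and that activity drives both genes of the crypt base stem cell, such as Lgr5, Smoc2 and Axin2, and a set of secreted Wnt antagonists. Among these antagonists, Notum removes the lipid that Wnt proteins need, Wif1 and Sfrp5 bind Wnt proteins, and some Dkk family members act at the receptor or its neighbours. Of the other genes in the rule, Amica1 (listed as Jaml in current annotation) encodes a junctional adhesion molecule best known on leukocytes, whose partner on epithelium is Cxadr. Fgfbp1 is a secreted carrier that frees fibroblast growth factors from the matrix. Ifi27l2b belongs to a family of interferon-inducible genes. Aqp1, a water channel, was given as a further marker of these cells and was not used to choose them.

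In the mouse build GRCm38 (mm10, GENCODE vM21), Amica1 lies on the plus strand of chromosome 9 at 45079183 to 45108534 and Fgfbp1 on the minus strand of chromosome 5 at 43978858 to 43981779. Sfrp5 lies on the minus strand of chromosome 19 at 42197971 to 42202252, Ifi27l2b on the minus strand of chromosome 12 at 103450898 to 103457223, and Aqp1 on the plus strand of chromosome 6 at 55336432 to 55348555. All are annotated as protein coding. The 250 bases before the start site are shown for the rule genes and the marker found in the promoter table (RefSeq, GRCm38.p6), because their transcripts were high in the same cells. Each runs 5′ to 3′ on the gene's strand, and capitals mark the motif AGATAA of GATA factors.
Amica1, chr9:45078933-45079182, plus strand: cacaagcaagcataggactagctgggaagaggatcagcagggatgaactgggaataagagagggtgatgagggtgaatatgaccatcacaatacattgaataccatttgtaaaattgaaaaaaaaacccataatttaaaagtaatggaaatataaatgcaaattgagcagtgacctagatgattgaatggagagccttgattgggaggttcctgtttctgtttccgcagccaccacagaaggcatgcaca
Fgfbp1, chr5:43981800-43982049, minus strand: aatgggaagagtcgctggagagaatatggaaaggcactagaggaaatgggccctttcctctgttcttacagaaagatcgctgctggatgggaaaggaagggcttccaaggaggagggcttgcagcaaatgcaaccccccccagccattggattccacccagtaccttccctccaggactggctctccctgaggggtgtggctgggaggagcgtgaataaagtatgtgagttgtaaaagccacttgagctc
Sfrp5, chr19:42202253-42202502, minus strand: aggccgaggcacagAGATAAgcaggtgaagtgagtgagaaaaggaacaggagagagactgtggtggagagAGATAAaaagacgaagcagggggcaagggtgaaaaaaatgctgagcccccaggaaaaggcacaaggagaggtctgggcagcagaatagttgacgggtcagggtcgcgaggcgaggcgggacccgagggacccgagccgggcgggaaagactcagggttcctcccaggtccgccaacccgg
Aqp1, chr6:55336049-55336298, plus strand: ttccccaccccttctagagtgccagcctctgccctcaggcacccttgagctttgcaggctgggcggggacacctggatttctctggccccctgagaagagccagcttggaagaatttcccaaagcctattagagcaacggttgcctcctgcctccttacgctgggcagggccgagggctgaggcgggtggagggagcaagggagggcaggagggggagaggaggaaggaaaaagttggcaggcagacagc
Both strands were searched for the motif CTTTGNT of TCF/LEF factors, TGANTCA of AP-1, AGATAA of GATA factors and TTTATNG of CDX factors. The Sfrp5 window held AGATAA at 236 and 180 bases before the start site, and the other windows printed here held no match to any of the 4. Of 32851 promoter windows of the same length, 15.98% held CTTTGNT, 6.75% TGANTCA, 9.99% AGATAA and 9.81% TTTATNG. A first search with CTTTGAT and CTTTGTT alone, which 8.06% of all windows held, gave no match in these windows. The 4 motifs were chosen after the letters had been read, so the match in Sfrp5 is a description of the sequence only.

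The members were unevenly split. The DMSO library gave 182 of the 200, which is 18.8% of its cells (exact 95% interval 16.4 to 21.4%), and the DBZ library gave 18, or 1.45% of its cells (0.862 to 2.28%). The rule used these values, so the split is a description of what it found. The summed natural log value was 6.699 in the highest member and 2.192 in the last, and the first cell outside had 2.189. Of the other cells, 48.9% in the DMSO library and 77.9% in the DBZ library had none of the 4 transcripts. All 4 genes were seen in 42 members, 3 in 88, 2 in 60 and only 1 in 10. Amica1 gave the largest part of the sum in 144 members, Fgfbp1 in 40, Sfrp5 in 10 and Ifi27l2b in 6.

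Members were also more deeply counted than the other cells. Their median was 15895 UMIs (unique molecular identifiers, 1 per captured transcript) in the DMSO library against 10523.5 in the other cells, and 13658 against 10864 in the DBZ library. Median genes per cell were 3657 against 3028 and 3614.5 against 3190. Over all cells the libraries held 13083018 (DMSO) and 16168229 (DBZ) UMIs. Levels below are therefore means over cells of UMIs per 10000 UMIs of the cell, and shares of cells are given also after every cell was thinned to 5000 UMIs. Median mitochondrial shares were alike, at 4.35% against 4.42% in the DMSO library and 4.67% against 4.68% in the DBZ library. Of 6 cells whose barcodes occurred in both libraries, 0 were members. A doublet caller marked 6 DMSO and 2 DBZ cells, of which 1 was a member, and so few calls say little about doublets.

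By construction the rule genes were high in the members. Amica1 stood at 5.01 in members and 0.444 in the other cells of the DMSO library, and at 5.12 against 0.162 in the DBZ library. Fgfbp1 had 2.03 against 0.289 and 0.745 against 0.0533, a level in DBZ members below that in DMSO members. Sfrp5 had 0.746 against 0.145 and 0.416 against 0.0353, and Ifi27l2b 0.822 against 0.05 and 0.843 against 0.0339. The 18 DBZ members thus reached the limit mostly through Amica1, which made up 59.4% of their sum against 47.1% in DMSO members, while Fgfbp1 made up 14.7% against 27.4%.

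Aqp1, the marker outside the rule, was higher in members of both libraries. In the DMSO library it averaged 0.425 in members and 0.0439 in the other cells, a log2 difference of 2.34 on the scale of level plus 0.05. In the DBZ library the levels were 0.287 against 0.0300 (2.08), from only 9 UMIs in members. The ratio of pooled UMIs gave 2.93, 2.46 to 3.42 (95% counting interval) and 2.95, 1.75 to 3.96. Aqp1 was seen in 37.4% of DMSO members against 4.96% of the other cells, and in 33.3% against 3.27% in the DBZ library. At 5000 UMIs per cell these shares became 18.1% against 2.67% and 5.56% against 1.14%. Most members of either library had no Aqp1 UMI at this depth.

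Each rule gene was also high in cells chosen without it. When the 200 cells were taken by the other 3 genes, the log2 difference of Amica1, when left out, was 1.83 (DMSO) and 1.92 (DBZ), and that of Fgfbp1 1.66 (DMSO) and 2.08 (DBZ). For Sfrp5 it was 1.08 (DMSO) and 2.12 (DBZ), and for Ifi27l2b 2.53 (DMSO) and 2.55 (DBZ). All 8 pooled counting intervals lay above 0, the lowest bound being 0.85 for Sfrp5 in the DMSO library. The group was named with these genes already known to go together, so this describes their shared pattern and is no independent evidence of it. At 5000 UMIs per cell, 32.0% of DMSO cells with Amica1 had Fgfbp1, against 13.9% of those without. Ifi27l2b was seen in 14.7% against 4.35%, and Aqp1 in 13.3% against 2.46%. The pair with the smallest Spearman coefficient in that library was Fgfbp1 and Sfrp5, with Sfrp5 in 13.5% of cells with Fgfbp1 and 9.58% of those without.

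**Figure D1:**
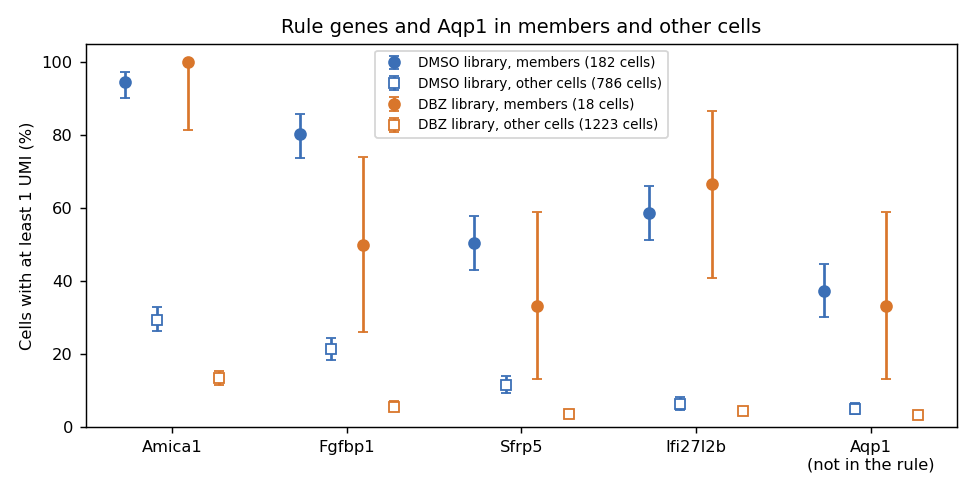
Share of cells (%) with at least 1 UMI of each rule gene and of Aqp1, in members (filled) and other cells (open) of the DMSO (blue) and DBZ (orange) libraries, with exact 95% binomial intervals that cover counting error only. Aqp1, which the rule did not use, was seen in 37.4% of DMSO members and 33.3% of DBZ members, against 4.96% and 3.27% of the other cells.

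Over the 7857 genes with a UMI in 10% or more of each library's cells (the rule genes left out), few were higher in the members and more were lower. In both libraries, 23 genes were at least 2-fold higher, which is 0.293% of those tested, and 115 were at least 2-fold lower (1.46%). The median log2 difference of all genes was -0.09 in the DMSO library and -0.10 in the DBZ library, so a typical gene lay slightly below 0. Log2 differences below are of members against the other cells of the same library unless another contrast is named, 'tested' means only that a gene passed this filter on low values, and 'pooled' marks the log2 ratio of summed UMIs with its 95% counting interval. In the DBZ library alone, where members were 18 cells, 289 genes were at least 2-fold higher (3.68%) and 984 lower (12.5%), against 36 (0.458%) and 149 (1.9%) in the DMSO library.

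The 15 named genes that were higher in both libraries, ranked by the smaller of their 2 differences, included several surface proteins of the gut epithelium. Pigr, the receptor that carries IgA across the epithelium, averaged 1.5 in members and 0.166 in the other cells of the DMSO library (log2 2.85, pooled 2.99, 2.76 to 3.23). In the DBZ library Pigr had 2.03 against 0.232 (2.88, pooled 2.09, 1.57 to 2.56). Lgals4, a galectin of the gut surface, had log2 differences of 1.52 (DMSO) and 3.57 (DBZ), and its level in DBZ members, 11.7, was above the 3.25 in DMSO members. Its pooled ratio was 0.97, 0.86 to 1.08 in the DMSO library, just under 2-fold, and 3.16, 3.00 to 3.32 in the DBZ library. Muc13, a membrane mucin, had 1.23 (DMSO) and 1.58 (DBZ), Tspan8, a tetraspanin, 1.36 (DMSO) and 1.92 (DBZ), and Mpzl2, an adhesion protein, 1.28 (DMSO) and 2.06 (DBZ). F3, the tissue factor that starts coagulation, had 1.43 (DMSO) and 3.02 (DBZ).

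Cdca7, a Myc-regulated partner of the chromatin remodeller Hells, was among the most even of the 15 between libraries. It averaged 2.78 in members and 0.532 in the other cells of the DMSO library and 1.95 against 0.358 in the DBZ library, with log2 differences of 2.29 (DMSO) and 2.29 (DBZ). Per cell, DMSO members ran from 0 over a median of 2.47 to 9.39, while the median of the other cells was 0. DBZ members ran from 0 over 1.87 to 6.26, against a median of 0 and a maximum of 6.27 in the other cells. The ranges overlapped in both libraries, while the median was above 0 in the members alone. Cdca7 was seen in 65.4% of DMSO members at 5000 UMIs, against 17.7% of the others. Cdca7 lies on the plus strand of chromosome 2 at 72476159 to 72486893.

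Smoc2, a secreted matrix protein and marker of crypt base stem cells, had 5.07 against 1.94 in the DMSO library (1.36, pooled 1.32, 1.22 to 1.41) and 3.57 against 1.00 in the DBZ library (1.78). Spry1, a feedback inhibitor of receptor tyrosine kinase signalling, had 1.32 (DMSO) and 2.29 (DBZ). Of the enzymes, Oat, which breaks down ornithine, had 1.39 (DMSO) and 2.42 (DBZ), and Ckmt1, the mitochondrial creatine kinase, 1.20 (DMSO) and 2.87 (DBZ). Serpinb1a, an inhibitor of serine proteases, had 1.63 (DMSO) and 2.04 (DBZ), and Ifi30, a lysosomal thiol reductase, 1.59 (DMSO) and 1.43 (DBZ). The regulatory myosin light chain Myl9 had 1.71 (DMSO) and 2.82 (DBZ), but with only the 100 highest cells, of which 4 were DBZ cells, its value there was -0.338.

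Reg3b, an antibacterial lectin, rested on few cells. Its mean was 30.3 in DBZ members against 1.07 in the other cells, but 66.4% of the former came from 1 cell, and without that cell it was 10.8. Reg3b was seen in 10 of the 18 DBZ members, and in 15.4% of DMSO members against 10.3% of the other DMSO cells. The DMSO means were 2.14 against 0.571, with 36.1% of the member value from 1 cell. Reg3g, a gene of similar sequence between which reads may be split, had 21.2 against 0.644 in the DBZ library, where the same cell, ranked 199 by the sum, gave 84.8%, and 1.18 against 0.907 in the DMSO library.

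Among the 12 genes named as lower in both libraries were the secreted Wnt antagonists Notum and Wif1, and Dkk3, a member of the Dkk family. Notum averaged 1.80 in members and 9.98 in the other cells of the DMSO library (log2 -2.44, pooled -2.62, -2.77 to -2.47) and 0.654 against 15.1 in the DBZ library (-4.43, pooled -4.28, -4.99 to -3.65). Per cell, the median Notum level was 0.477 in DMSO members against 3.8 in the other cells, and 0.381 against 7.08 in the DBZ library. All 18 DBZ members lay at or below 2.80, which is close to the lower quartile of the other DBZ cells, 2.28. DMSO members overlapped with the rest more widely, since 1 of them reached 99.7 and gave 30.4% of the member mean. Notum lies on the minus strand of chromosome 11 at 120653788 to 120661175, Wif1 on the plus strand of chromosome 10 at 121033960 to 121100650 and Dkk3 on the minus strand of chromosome 7 at 112116017 to 112159057.

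Wif1 was seen in 5.49% of DMSO members and 25.1% of the other DMSO cells, and in 1 of 18 DBZ members against 52.7% of the other DBZ cells. Its levels were 0.0936 against 0.828 (-2.61, pooled -3.21, -3.89 to -2.60) and 0.0234 against 1.81, where members held 1 UMI (pooled -5.51, -10.82 to -3.04). Dkk3 had 0.312 against 1.60 (-2.19, pooled -2.39, -2.74 to -2.06) and 0.0770 against 1.71, where members held 2 UMIs (pooled -4.52, -7.56 to -2.66). Shares at 5000 UMIs had the same order although members were the deeper cells. Notum was seen in 35.2% of DMSO members against 72.7% of the others, and Dkk3 in 13.2% against 44.4%.

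Cdkn1c, the cell cycle inhibitor p57, had 0.341 against 2.05 in the DMSO library (-2.42) and 0.131 against 2.43 in the DBZ library, from 3 UMIs in members (pooled -4.39, -6.67 to -2.84). H19, an imprinted long non-coding RNA, had 0.0417 against 0.547 in the DMSO library, where members held 10 UMIs and 76.9% of the member value came from 1 cell. In DBZ members H19 had 0 UMIs, which put the upper bound of the pooled log2 ratio at -2.01. H19 was seen in only 10.6% of the other DBZ cells. The exact interval for the share of the 18 members ran from 0 to 18.5% and so holds that value. The other 7 were Hmgn3, a nucleosome-binding protein, Irx5, a homeobox factor, Cdh13, a cadherin without a cytoplasmic tail, the proteoglycan Spock2, the calcium-binding protein Tesc, the growth factor binder Igfbp1 and Ccdc141. Their log2 differences ran from -2.30 (Hmgn3) to -1.97 (Ccdc141) in the DMSO library. In the DBZ library members held 1 to 9 UMIs of each. The upper bounds of the pooled log2 ratios there lay between -3.30 (Spock2) and -1.75 (Cdh13). The 7 were named for being among the lowest in these same cells, so bounds below 0 are no separate evidence. The spread between cells is not in these intervals.

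**Figure D2:**
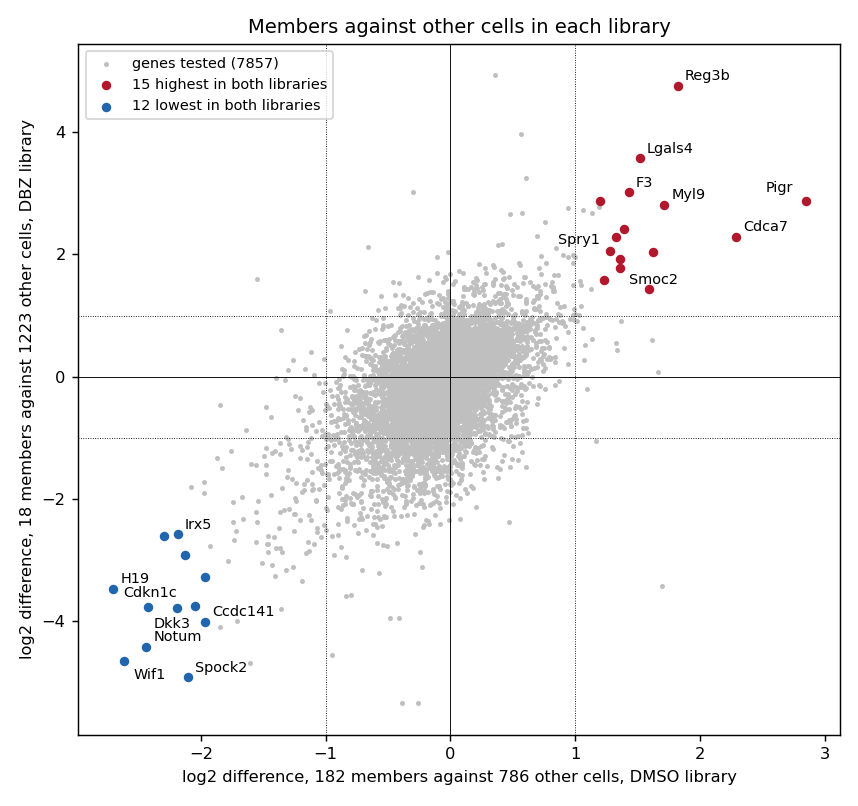
log2 difference of members against the other cells of the same library, DMSO on the horizontal and DBZ on the vertical axis, for 7857 genes (grey), with the 15 highest (red) and 12 lowest (blue) genes of both libraries and dotted lines at 2-fold. Notum, Wif1 and Dkk3 lie at the lower left (-2.44 and -4.43, -2.61 and -4.66, -2.19 and -3.79), and of the coloured genes Pigr and Cdca7 lie furthest to the right.

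Wnt target genes were mostly lower in the members, though not all. Of 22 tested, 13 lay below 0 in both libraries and 4 above, where all genes tested gave 43.2% below and 25.4% above. The median was -0.49 (DMSO) and -0.70 (DBZ). The 6 at least 2-fold lower in both were Notum, Wif1, Dkk3, Nkd1, Prox1 and Ephb3, and 0 were 2-fold higher in both. Nkd1, a feedback inhibitor of Wnt signalling, had 3.78 against 7.83 in the DMSO library (-1.04) and 3.90 against 10.7 in the DBZ library (-1.44). Prox1, a homeobox factor of intestinal tumours, had 3.23 against 6.52 (-1.0) and 2.1 against 9.52 (-2.15). Ephb3, a receptor that positions cells in the crypt, had -1.15 (DMSO) and -1.15 (DBZ).

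Other Wnt targets differed less or lay on the other side. Axin2, the usual readout of the pathway, had 2.20 against 2.87 in the DMSO library (-0.38, pooled -0.32, -0.44 to -0.19) and 2.25 against 3.88 in the DBZ library (-0.77, pooled -0.85, -1.23 to -0.50). Rnf43, which clears Wnt receptors from the surface, had -0.05 (DMSO) and -0.54 (DBZ), and Znrf3, which does the same, -0.27 (DMSO) and -0.66 (DBZ). Lef1 had -0.78 (DMSO) and -0.99 (DBZ), and Tcf7 -0.74 (DMSO) and -1.23 (DBZ). Above 0 in both libraries were Ascl2, Myc, Ccnd1 and Cd44, of which Ccnd1, the G1 cyclin, had 0.28 (DMSO) and 1.77 (DBZ) and Myc 0.10 (DMSO) and 1.20 (DBZ). Of the secreted antagonists, Dkk2 was seen in too few cells for the tested set and had 0.94 (DMSO) and 1.57 (DBZ). Of the Dkk2 level in DBZ members, 67.5% came from 1 cell, and without that cell it was 0.238 against 0.200 in the other cells. Wnt6, the ligand, had -0.55 (DMSO) and -0.55 (DBZ), and the co-receptor Lrp6 -0.58 (DMSO) and -1.08 (DBZ), with a DBZ value of 0.20 when only the 100 highest cells were taken.

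Crypt base stem cell genes lay on both sides. Of 19 tested, 8 lay above 0 in both libraries and 6 below, where 25.4% and 43.2% of all genes did, with medians of -0.05 (DMSO) and 0.05 (DBZ). Cdca7 and Smoc2 were the 2 at least 2-fold higher in both. Lgr5, the receptor that defines these stem cells, averaged 2.14 in members and 1.15 in the other cells of the DMSO library (0.87, pooled 0.97, 0.82 to 1.11), but 1.03 against 1.08 in the DBZ library (-0.07, pooled -0.23, -0.86 to 0.34). Its median per cell was 1.89 in DMSO members and 0.659 in the other cells, with overlapping ranges. Ascl2, the stem cell transcription factor, had 0.57 (DMSO) and 1.04 (DBZ), and the ion transporter Slc12a2 0.90 (DMSO) and 2.00 (DBZ). Lrig1, a brake on ErbB receptors, had 0.55 (DMSO) and 0.60 (DBZ), and Soat1, which esterifies cholesterol, 0.74 (DMSO) and 0.95 (DBZ). Igfbp4 had 0.34 (DMSO) and 1.83 (DBZ), and its DBZ value was -0.14 when cells were chosen without Amica1. Sox9 had -0.80 (DMSO) and 0.02 (DBZ). Olfm4, a further marker of these stem cells, was nearly absent, at 0.0123 in DMSO members and listed at 0 in every DBZ cell.

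The levels of Notum, Cdca7 and Smoc2 were graded along the sum and did not begin at its limit. Notum averaged 13.4 in DMSO cells with a sum of 0, 9.07 with a sum up to 1, 3.95 from 1 to the limit, 3.08 in the lower-ranked 100 members and 0.651 in the first 100. In the DBZ library the first 4 of these levels were 17.2, 8.95, 3.57 and 0.589, and the last, from 4 cells, was 0.884. Cdca7 went the other way, from 0.296 over 0.519, 1.04 and 1.90 to 3.58 in the DMSO library. Smoc2 went from 1.56 to 5.70 there, while Lgr5 was nearly level up to the limit (1.11, 1.15 and 1.22) and stood at 1.84 and 2.40 in the members. Median UMIs per cell moved along the same steps, from 9394 to 16114 in the DMSO library, so that depth and the sum went together. Among cells of at least 12000 UMIs in both groups, a comparison added after the data were seen, 16 genes were at least 2-fold higher and 76 at least 2-fold lower in both libraries. The Notum difference there was -2.20 (DMSO) and -3.71 (DBZ), that of Cdca7 1.71 and 1.76, and that of Smoc2 1.15 and 1.30, in each case smaller than over all cells but on the same side.

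**Figure D3:**
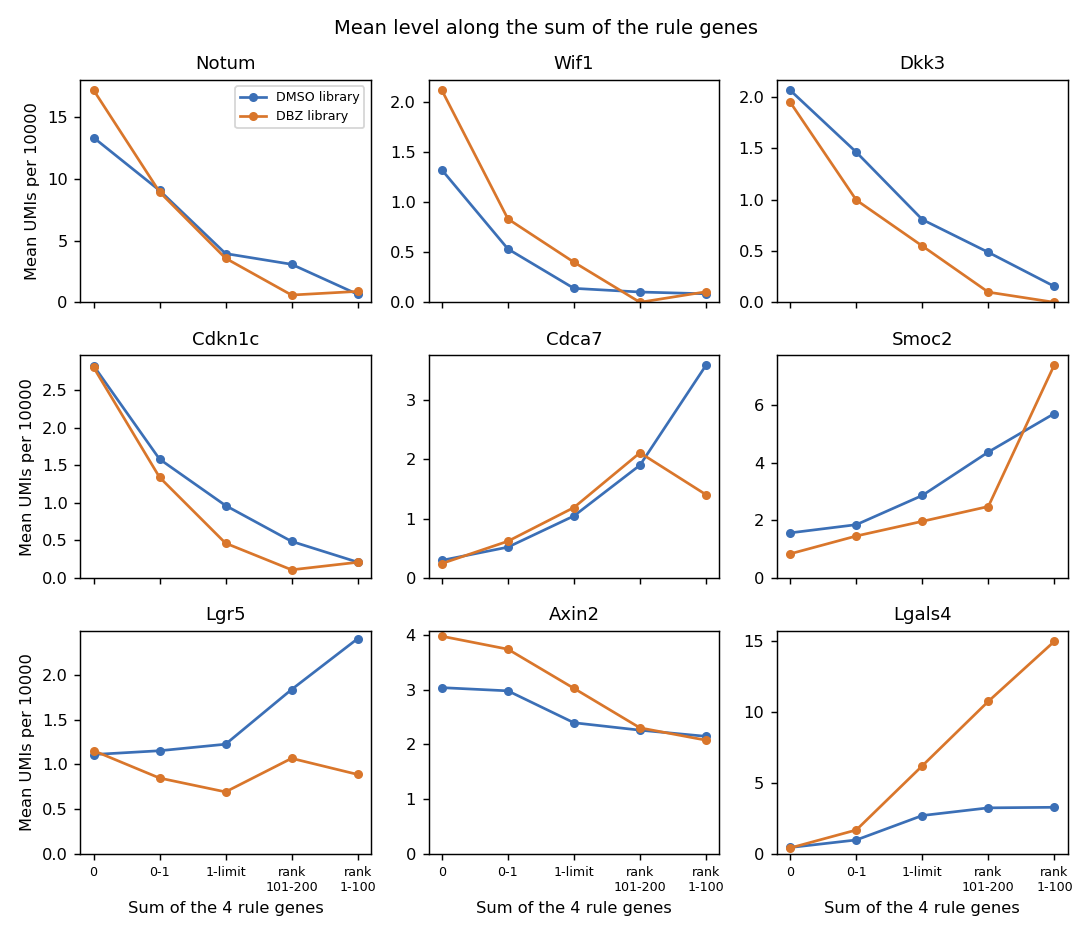
Mean UMIs per 10000 of 9 genes in 5 steps of the summed rule genes, from cells with a sum of 0 to the members ranked 1 to 100, in the DMSO (blue) and DBZ (orange) libraries. Notum, Wif1, Dkk3 and Cdkn1c are lower and Cdca7, Smoc2 and Lgals4 higher towards the right, while the last DBZ point of each panel rests on 4 cells.

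Genes of DNA synthesis were higher in members throughout the list. All 17 tested lay above 0 in both libraries, where 25.4% of all genes did, with medians of 0.71 (DMSO) and 0.95 (DBZ). Mcm6, of the replicative helicase, had 0.866 against 0.409 in the DMSO library (1.00) and 0.663 against 0.302 in the DBZ library (1.02). Dut, which keeps uracil out of DNA, had 0.98 (DMSO) and 1.02 (DBZ), Uhrf1, which maintains DNA methylation, 0.69 (DMSO) and 1.44 (DBZ), and Mcm4 0.82 (DMSO) and 1.47 (DBZ). No gene of the list was at least 2-fold higher in both libraries, and Mcm6 was just under that line in the DMSO library. Of 16 mitotic genes tested, 12 lay above 0 in both and 0 below, where 25.4% and 43.2% of all genes did, with medians of 0.43 (DMSO) and 0.47 (DBZ). Mki67, the proliferation marker, had 0.31 (DMSO) and 0.30 (DBZ). In DBZ members 1 cell gave 77.4% of the Ccnb1 level and 1 cell 52.9% of the Cenpa level. Without the highest cell of each, Ccnb1 had 0.108 against 0.2615 in the other DBZ cells and Cenpa 0.433 against 0.457. Ube2c (0.8835 against 0.794) and Ccnb2 (0.282 against 0.2445) stayed above the other cells in this way.

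Ribosomal protein genes were slightly higher, with 18 of 20 above 0 in both libraries, against 25.4% of all genes, and medians of 0.23 (DMSO) and 0.38 (DBZ). Rps2 had 42.0 against 30.3 (DMSO) and 41.7 against 24.1 (DBZ), and ribosomal protein genes have many near-identical copies between which reads may be split. Chaperones and enzymes of the endoplasmic reticulum went the other way. Of 17 tested, 13 lay below 0 in both and 0 above, where 43.2% of all genes lay below and 25.4% above. Their medians were -0.17 (DMSO) and -0.46 (DBZ), against -0.09 and -0.10 for all genes. Xbp1, the factor of the unfolded protein response, had -0.86 (DMSO) and -1.38 (DBZ). S100a6, a calcium-binding protein found in regenerating epithelium, was at 6.22 against 24.6 in the DMSO library (-1.97) and 7.16 against 23.8 in the DBZ library (-1.72). Of the 11 regeneration genes tested, S100a6 among them, 5 lay below 0 in both libraries and 3 above, shares close to those of all genes. Cholesterol synthesis genes did not share a direction between libraries, with medians of 0.28 (DMSO) and -0.26 (DBZ) over 18 genes.

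**Figure D4:**
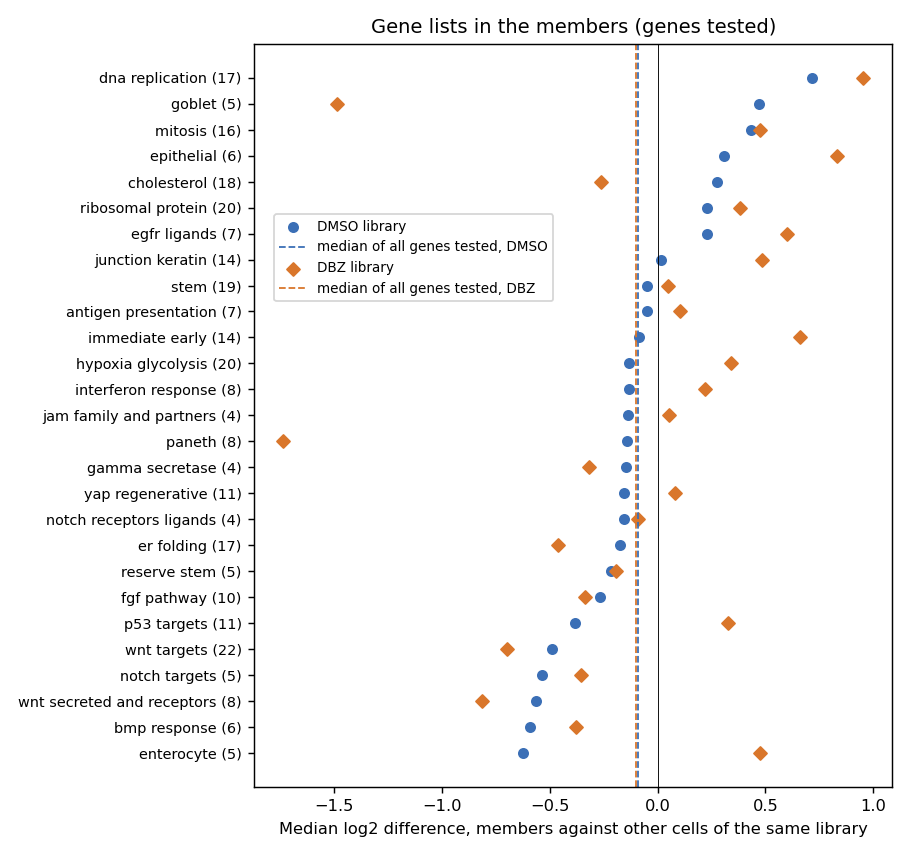
Median log2 difference of members against the other cells of the same library for each gene list with at least 4 tested genes (their number in brackets), in the DMSO (circles) and DBZ (diamonds) libraries. Dashed lines mark the medians of all genes tested, -0.09 (DMSO) and -0.10 (DBZ), and DNA replication lies highest in both libraries at 0.71 and 0.95.

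The members carried the markers of gut epithelium that the label of the organoids implies. Of 6 epithelial genes, 5 lay above 0 in both libraries and 0 below, where 25.4% and 43.2% of all genes did. Epcam had 13.6 against 10.1 in the DMSO library and 12.8 against 8.10 in the DBZ library, Cldn7, of the tight junction, 0.77 (DMSO) and 1.30 (DBZ), and Krt19 0.38 (DMSO) and 2.15 (DBZ), seen in all 18 DBZ members. The leukocyte list, which matters because Amica1 is known from leukocytes, had 0 of its 10 genes in the table, so those cells could not be looked for by it. Of the fibroblast list only Vim was in the table, at 6.50 against 12.9 and 1.44 against 5.79. Endothelial genes were near 0, with a summed level of 0.106 in DMSO members and 0.209 in DBZ members over 3 genes.

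Paneth cell markers were lower in DBZ members by mean but not by median. The Paneth list of 14 genes in the table summed to a mean of 79.5 in DBZ members against 277 in the other DBZ cells, and to 50.6 against 67.8 in the DMSO library. Medians per cell were 25.5 against 21.9 and 5.09 against 5.34. Single cells reached 560 among DBZ members and 4434 among the other DBZ cells, and 3707 and 4581 in the DMSO library, so the means rest heavily on few cells. Defa22, a defensin, had 1.17 against 49.7 in the DBZ library and 7.69 against 9.24 in the DMSO library. Defensin genes are near-identical copies, and reads may be split between them. Itln1, a lectin of Paneth and goblet cells, had -1.85 (DMSO) and -0.46 (DBZ). Of 5 goblet genes tested, 1 lay above 0 in both libraries and 2 below, against 25.4% and 43.2% of all genes. Muc13 was at least 2-fold higher in both. Spink4 had -0.71 (DMSO) and -3.16 (DBZ), Tff3 0.47 (DMSO) and -2.38 (DBZ), and Fcgbp -0.80 (DMSO) and -1.08 (DBZ). With the 100 highest cells of each library, the DBZ values were 0.14 (Spink4), 1.78 (Tff3) and 1.36 (Fcgbp). The sign of these 3 in the DBZ library thus depends on which cells are taken.

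Enteroendocrine markers were lower in the DMSO members by mean but not by median. Over 22 genes in the table their summed mean was 1.22 against 6.72 in the other cells. The median sum was 0 in both groups, and single cells reached 1807 among the other DMSO cells. Sct, secretin, and Cpe, a prohormone-processing enzyme, were the only 2 genes tested and were at least 2-fold lower in both libraries. Of the Cpe level in members, 83.45% (DMSO) and 100% (DBZ) came from 1 cell. In DBZ members the sum was 76.2 against 22.5, and most of it lay in 1 cell. That cell, ranked 142 by the sum, held 178 Chga, 398 Chgb and 733 Reg4 per 10000, which is 99.6%, 99.7% and 100% of these transcripts in DBZ members by level. The median sum was 0.788 in DBZ members and 1.91 in the other DBZ cells. Of 5 enterocyte genes tested, 2 lay above 0 in both libraries and 2 below, against 25.4% and 43.2% of all genes, with medians of -0.63 (DMSO) and 0.47 (DBZ). Vil1, of the brush border, had 1.04 (DMSO) and 1.57 (DBZ), and Cdhr5, also of the brush border, -0.63 (DMSO) and -0.03 (DBZ). Sis, which digests sucrose, had -0.80 in the DMSO library and 0 UMIs in DBZ members.

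Genes related to those of the rule by family or pathway are set here against all genes, of which 25.4% lay above 0 in both libraries and 43.2% below. Of 10 tested genes of fibroblast growth factor signalling, the pathway that Fgfbp1 serves, 2 lay above 0 in both libraries and 6 below. Spry1 was the 1 at least 2-fold higher in both. Dusp6, a target of the pathway, had -0.58 (DMSO) and -0.64 (DBZ), the receptor Fgfr2 had -0.53 (DMSO) and -1.62 (DBZ), and Fgfr4 -0.66 (DMSO) and -0.38 (DBZ). The ligand Fgf1, in too few cells for the tested set, had 0.174 against 0.0362 in the DMSO library. Of 8 interferon response genes tested, 2 lay above 0 in both and 3 below, shares near those of all genes. Ifi27, a relative of Ifi27l2b, had 0.69 (DMSO) and 0.49 (DBZ), Bst2 0.12 (DMSO) and 0.46 (DBZ), Irf1 -0.55 (DMSO) and 0.78 (DBZ) and Ifitm1 -0.54 (DMSO) and -1.88 (DBZ). Ifit1 and Isg15, both sensitive interferon targets, were at 0.0190 and 0.0170 in DMSO members and at 0 UMIs in DBZ members. Cxadr, the partner of the Amica1 protein, had 0.33 (DMSO) and 0.16 (DBZ), and F11r, another junctional adhesion molecule, -0.38 (DMSO) and -0.71 (DBZ).

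Of 5 Notch targets tested, 3 lay below 0 in both libraries and 1 above, where 43.2% and 25.4% of all genes did. Hes1, the classical target in the intestine, had 2.04 against 3.64 in the DMSO library (-0.82, pooled -0.87, -1.0 to -0.75) and 0.574 against 0.855 in the DBZ library (-0.54, pooled -1.0, -1.95 to -0.19). Dtx4 had -0.54 (DMSO) and -0.36 (DBZ), and Lfng, which glycosylates Notch, 0.10 (DMSO) and 0.08 (DBZ). Of 6 genes of the BMP response, 3 lay below 0 in both, near the share of all genes, and 0 above. Smad7 had -0.98 (DMSO) and -1.59 (DBZ), and its DBZ value was 0.29 with only the 100 highest cells. Id1 had -0.70 (DMSO) and 0.67 (DBZ).

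Of 7 tested genes of EGF receptor ligands and their receptors, 4 lay above 0 in both libraries and 1 below, where 25.4% and 43.2% of all genes did. Hbegf, a ligand of this receptor, had 5.66 against 3.32 in the DMSO library (0.76) and 4.58 against 0.752 in the DBZ library (2.53). Areg had -0.11 (DMSO) and 1.70 (DBZ), but 53.5% of its level in DBZ members came from 1 cell, and with only the 100 highest cells the DBZ value was -1.72. Immediate early genes had medians of -0.08 (DMSO) and 0.66 (DBZ) over 14 genes, and Ier3, an early response gene, 0.77 (DMSO) and 1.86 (DBZ). Whether these differences themselves differ between libraries was not tested.

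The counts of the remaining lists stand against 25.4% of all genes above 0 in both libraries and 43.2% below. Of 11 p53 targets tested, 0 lay above 0 in both libraries and 3 below, among them Trp53inp1 with -0.92 (DMSO) and -0.73 (DBZ), while Cdkn1a, p21, had -0.38 (DMSO) and 0.43 (DBZ). Of 20 genes of hypoxia and glycolysis, 5 lay above 0 in both and 2 below, with Bnip3, a mitophagy receptor, at -0.80 (DMSO) and -0.18 (DBZ) and Eno1, enolase, at 0.18 (DMSO) and 0.78 (DBZ). Of 14 junction and keratin genes, 7 lay above and 3 below, and of 7 antigen presentation genes 3 and 1. Psmb10, of the immunoproteasome, had 0.71 (DMSO) and 1.15 (DBZ). Of 4 subunits of gamma-secretase, the target of DBZ, 0 lay above 0 in both libraries and 2 below, Ncstn with -0.38 (DMSO) and -0.37 (DBZ) and Psenen with -0.29 (DMSO) and -0.32 (DBZ). Of 4 Notch receptors and modifiers tested, 1 lay above and 1 below. Of 5 markers proposed for reserve stem cells, 1 lay above in both, Lrig1, and 3 below, with Clu at -0.61 (DMSO) and -0.73 (DBZ) and Bmi1 at -0.49 (DMSO) and -0.19 (DBZ). Both M cell genes tested lay below 0, Marcksl1 at -0.57 (DMSO) and -0.85 (DBZ), and of 2 tuft cell genes 1 did, Cd24a at -0.03 (DMSO) and -0.95 (DBZ). No aquaporin passed the filter on low genes, Aqp1 included.

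DBZ members and DMSO members were then set against each other, with the same contrast in the other cells beside it. Over 5651 genes seen in at least 25% of members, 429 differed at least 2-fold (7.59%), 137 higher in DBZ members (2.42%) and 292 lower (5.17%). In the other cells 102 of the same genes did (1.8%), where the means rest on 1223 and 786 cells in place of 18 and 182. The filter was taken over members of both libraries together, so a gene seen only in the 18 DBZ members could not pass. A gene seen only in DMSO members could, so the counts of higher and lower genes are not on an equal footing. Gpx2, a glutathione peroxidase of the gut, averaged 12.4 in DBZ members and 2.95 in DMSO members (2.06, pooled 2.38, 2.22 to 2.54), while the other cells gave -0.13. Lgals4 averaged 11.7 in DBZ members and 3.25 in DMSO members (1.83, pooled 1.81, 1.64 to 1.98), against -0.23 in the other cells. Car2, a carbonic anhydrase, averaged 1.5 in DBZ members and 0.373 in DMSO members (1.87, pooled 2.46, 1.98 to 2.93), against -0.25. No single cell held more than 18.8% of the DBZ member level of these 3 genes.

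Clu, a secreted chaperone known from regenerating crypts, was 2.08 higher in DBZ members than in DMSO members on the log2 scale, and the other cells gave 2.20. Sp5, a Wnt target, had 1.76 in members and 0.38 in the other cells, Myrf 1.99 and 0.39, and Rin2 1.77 and 0.46. Tpbg, the last of the 8 highest, rested on 1 cell, which held 95.3% of its DBZ member level, and without that cell the difference was -1.64. Among the 8 lowest, the growth factor binder Igfbp2 averaged 0.0735 in DBZ members and 1.61 in DMSO members (-3.75, pooled -3.95, -7.00 to -2.08) with -0.29 in the other cells. DBZ members held 2 UMIs of Igfbp2, and 39.0% of its level in DMSO members came from 1 cell, without which it was 0.990. The early response gene Egr4 and the matrix protein Prelp were lower in both kinds of cell, with -2.68 and -2.50 for Egr4 and -2.65 and -2.35 for Prelp. DBZ members held 1 UMI of each. Defa22 had -2.67 in members and 2.42 in the other cells, but 42.5% of its level in DMSO members, 7.69, came from 1 cell, without which it was 4.45. More DBZ members than DMSO members had a Defa22 UMI, 83.3% against 35.2%, and 44.4% against 19.2% at 5000 UMIs, so the share of cells ran opposite to the level. Aqp4, a water channel, and Insc had 0 UMIs in DBZ members and 116 and 76 in DMSO members, and Stk39, a kinase that regulates ion transporters, had 2 and 154. DBZ members held 294339 UMIs in all and DMSO members 3084907, so these counts are not levels. The log2 differences were -3.11 (Aqp4), -2.62 (Insc) and -2.57 (Stk39), against -1.42, -0.53 and -0.34 in the other cells. Aqp4 and Insc passed the filter through DMSO members alone, and were seen in only 1.31% and 5.15% of the other DBZ cells.

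Because 18 cells are few, the 100 DBZ cells with the highest sum in their own library were looked at as well. Their sums ran from 0.893 to 4.741 and included all 18 members. Notum had 3.35 against 15.9 (-2.23) in the other DBZ cells, Wif1 0.289 against 1.92 (-2.54) and Dkk3 0.392 against 1.80 (-2.07). On the other side Cdca7 had 1.25 against 0.305 (1.87), Lgals4 6.88 against 0.586 (3.45), Pigr 1.55 against 0.145 (3.03), Smoc2 2.23 against 0.935 (1.21) and Aqp1 0.147 against 0.0238 (1.42). All of the 15 highest genes lay above 0 there and all of the 12 lowest below 0. The set contains the 18 members, so it is no independent check of them.

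The members varied among themselves. In the DMSO library, the 120 members with 3 or 4 of the rule genes had 0.927 Notum against 3.49 in the 62 with 1 or 2, 1.95 Pigr against 0.643, and 1.06 Mcm6 against 0.484. Their median depth was 17234 UMIs against 12948, and its part in these differences was not tested. Axin2 (2.09 against 2.41) and Lgr5 (2.27 against 1.87) were closer together. The 130 DMSO members led by Amica1 and the 39 led by Fgfbp1 had 1.99 and 0.951 Notum, 2.97 and 2.25 Cdca7, and 2.29 and 1.58 Lgr5. The 9 led by Sfrp5 had 3.25 Notum, 0.581 Wif1 and 6.40 Prox1, closer to the other DMSO cells (9.98, 0.828 and 6.52) than those led by Amica1 (1.99, 0.0781 and 3.21).

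Similar sets of 200 cells, taken by other gene sums, overlapped with the members only in part. The cells highest in Lgr5 and Smoc2 shared 83 of 200 (41.5%), those highest in Ly6a, Reg3b and Reg3g shared 36 (18%), and those highest in Pnliprp2 and Cited4 shared 27 (13.5%). The sets share cells, so their values are given side by side with no test. In the DMSO library, Notum averaged 1.80 in the members, 6.98 in the Lgr5 and Smoc2 set, 0.998 in the Ly6a set and 14.6 in the Pnliprp2 set. Cdca7 averaged 2.78, 2.08, 1.76 and 0.716 in the same order. Other genes that were high in the members were as high or higher in the Ly6a set, with Lgals4 at 5.69 against 3.25 in the members, Muc13 at 1.83 against 1.40, Tspan8 at 2.58 against 2.29, F3 at 1.73 against 1.35, Oat at 5.09 against 4.74 and Ckmt1 at 0.839 against 0.649. Reg3b, which chose that set, Serpinb1a, Ifi30, Spry1 and Mpzl2 were also at or above their level in the members there, while Pigr, Cdca7, Myl9 and Smoc2 were below it. Low Notum was found in the Ly6a set too, and high Cdca7 in every set but the Pnliprp2 set, against 0.532 in DMSO cells outside the members, though these sets share cells with the members. Wif1, Dkk3, Nkd1, Prox1 and Ephb3 were low in the Ly6a set of the DMSO library as well. Wif1 averaged 0.0737 there against 0.0936 in the members, Dkk3 0.325 against 0.312 and Nkd1 3.12 against 3.78. Prox1 averaged 1.86 against 3.23 and Ephb3 0.255 against 0.340. In the DMSO library Aqp1 averaged 0.425 in the members, 0.356 in the Lgr5 and Smoc2 set, 0.145 in the Ly6a set and 0.0940 in the Pnliprp2 set. Mcm6 averaged 0.866, 0.828, 0.883 and 0.404 in the same order, and Mki67 0.379, 0.439, 0.471 and 0.147. Higher levels of these 2 genes were thus shared with the Lgr5 and Smoc2 set and the Ly6a set. In the DBZ library, where the Lgr5 and Smoc2 set held 38 cells and 3 of the members, its Notum level was 23 against 0.654 in the members.

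Finally, the members lay near each other in overall expression. In 30 principal components of the 2000 most variable genes, computed without the rule genes, DMSO members had a mean of 8.143 other members among their 15 nearest cells, against 1.436 for the other DMSO cells, where an even spread within that library would give 2.82. DBZ members had 4.889, against 0.28 for the other DBZ cells. An even spread within the DBZ library would give 0.218. Neighbours were drawn from both libraries, however, and DMSO cells are more often members, so that figure is too low a baseline for DBZ members. Over both libraries the mean was 7.85 for members and 0.733 for the other cells, where an even spread would give 1.358. The neighbourhood was not uniform, since 110 members had at least 8 members around them and 12 had 0. Of the 15 neighbours of DBZ members, a mean of 7.5 were DMSO cells.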

How the data were processed

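The table holds natural log values made by the authors, which per the values are ln(1 + 10000 times the fraction of a cell's UMIs that a gene takes). Cell Ranger 2.1.1 and Seurat are named in the submitters' processing notes, and the build is mm10. Inverting the formula gave whole UMIs for all 7553435 values above 0 (tolerance 0.01). The 968 columns named CTRL were taken as the DMSO library and the 1241 named GSI (gamma-secretase inhibitor) as the DBZ library.

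Members were the 200 cells with the highest sum of table values of Amica1, Fgfbp1, Sfrp5 and Ifi27l2b. Levels are mean UMIs per 10000, and log2 differences add 0.05 to each mean. Genes needed a UMI in 10% or more of each library's cells (for DBZ against DMSO members, in 25% of the members of both libraries together), and called means past 2-fold. With 1 library per treatment no test was run. Intervals at 95% are exact (Clopper-Pearson for shares, conditional binomial for pooled UMI ratios). Single-sample columns left unused numbered 0. Cells were thinned to 5000 UMIs for shares, with 0 cells left out, and doublets were called with Scrublet in scanpy 1.11.5 (numpy 2.4.6, scipy 1.17.1, pandas 2.3.3, scikit-learn 1.9.0) and kept. The calculations were checked on simulated data.

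Genes named are the 15 highest and 12 lowest over both libraries, the 8 highest and 8 lowest between DBZ and DMSO members, and leading members of each gene list, leaving out Gm and Rik genes, mitochondrial, ribosomal protein and rule genes, and Xist (Rps2 is given as the example of its list). A gene that this rule selects is not reported here. The members and lists were chosen with earlier results of these data known. Chosen after values were seen were the motifs, the sets of like cells, the steps of the sum and splits of the members, the 100 highest DBZ cells, the genes followed in them, and 2 alternatives (deeper cells, and differences less the median).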

Additional observations from a re-analysis of the deposited data

Results flagged for a closer look

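For 2 genes the members lay at least 2-fold from the other cells in opposite directions in the 2 libraries, and the difference between libraries was not tested. Gm15284, a predicted gene, had a log2 difference of 1.70 in the DMSO library and -3.43 in the DBZ library. In the DMSO library 65.0% of the member level of 6.64 came from 1 cell, and without that cell the Gm15284 level was 2.34 against 2.02 in the other cells. Gdf15, a stress-induced growth factor, had 1.59 in the DBZ library, where 26.95% of the member level came from 1 cell, and -1.55 in the DMSO library.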

How the results depend on the processing

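The main values were 182 DMSO cells among the members, 23 genes at least 2-fold higher and 115 at least 2-fold lower in both libraries, and 429 at least 2-fold different between DBZ and DMSO members. The 100 highest cells gave 96, 35, 180 and 2020, the 100 highest of each library gave 100 DMSO cells and 223 between libraries, and the 400 highest gave 334, 37 higher and 103 between libraries. The sum gave 65 lower without Amica1, 258 between libraries without Fgfbp1 and 35 higher without Sfrp5. A pseudocount of 0.01 gave 40 higher and 184 lower, and one of 0.5 gave 9, 15 and 40. Without the filter on low genes there were 51, 173 and 1591, and with genes in at least 25% of cells 9 and 64, a setting that does not apply between libraries. The number of genes tested changed with the filter, so these counts have another base than the main ones. It was 7857 (5651 between libraries) in the main setting, 12364 (12578) without the filter and 4637 at 25%. The 2 alternatives chosen after seeing the data gave 76 lower and 670 between libraries (cells of at least 12000 UMIs) and 37 higher (differences less the median of all genes).

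A called value changed sign 31 times, in 15 genes and each time in the DBZ library, which has 18 members; the cause was not tested. With the 100 highest cells the log2 differences became -0.34 (Myl9), -0.65 (Tpbg), 0.20 (Lrp6), -1.72 (Areg) and 0.29 (Smad7), and with 400 cells 0.18 (Stk39), 1.34 (Tff3) and 0.98 (Fcgbp). With rule genes divided by their SD they were -1.51 (Tpbg), 0.092 (Stk39), 1.31 (Tff3), 0.57 (Fcgbp) and -0.053 (Ero1l). Without Amica1 they were -1.74 (Tpbg), 0.51 (Stk39), -0.14 (Igfbp4), 1.85 (Tff3), 1.56 (Fcgbp), 0.14 (Anxa5), -1.08 (Ccng1) and -0.72 (Ero1l), and without Sfrp5 0.36 (Stk39). With 100 cells of each library they were 0.13 (Stk39), 0.14 (Spink4), 1.78 (Tff3), 1.36 (Fcgbp) and 0.035 (Dusp1). Cells chosen after thinning gave 0.28 (Defa20), 1.86 (Tff3) and 0.74 (Fcgbp), and cells of at least 12000 UMIs gave -0.85 (Tpbg). No paired analysis was possible because each treatment has 1 library.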
